A study of Mus musculus with 2 samples.

Results

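The genes described here carry a mouse symbol of the form Zfp followed by a number, given to zinc finger proteins. They were taken as every probe set whose platform annotation names 1 gene with such a symbol, with Zfp36, Zfp36l1, Zfp36l2 and Zfp36l3 left out because these encode RNA-binding proteins. The rule gave 170 of the 12393 genes on the array, with 248 of its 20380 probe sets that name 1 gene. Among them Zfp353-ps is annotated as a pseudogene and Zfp85os as a long non-coding RNA, and both were at the signal floor on both arrays. The family was singled out with results of these 2 arrays already known, so all values below are a description.

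Most Zfp genes encode proteins with arrays of C2H2 fingers, small folds held by a zinc ion that read DNA in short steps. Many also carry a KRAB domain, which binds the co-repressor Trim28 and through it the histone methyltransferase Setdb1, and such proteins are best known for silencing transposable elements and for guarding imprinted loci. KRAB zinc finger genes arose by repeated duplication and lie side by side in clusters, so that neighbours are often close copies. Other members have no KRAB domain and act in development, and a further set works on RNA, ribosomes or ubiquitin.

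The series holds 2 Affymetrix Mouse Genome 430A 2.0 arrays of uterine stromal cells, the connective tissue cells that decidualize around an implanting embryo, taken on day 5 of pregnancy. The labels give 3 mice per genotype and there is 1 array for each, and whether RNA of the 3 mice was pooled is not stated. The control array came from floxed females with an intact target gene. The other array came from females labelled as conditional knockouts, made with PRcre, a Cre recombinase expressed from the progesterone receptor locus and so active in several uterine cell types and not in stroma alone. Per the breeding note the line was built on floxed mice, females of both genotypes were mated to fertile males, and the sources used here give neither strain nor age. The labels name Hif1 in the titles, Hif2 alpha in the genotype field and Rac1 in the breeding note, so the second array is called knockout-labelled. None of these genes was at the floor there at its probe set of highest signal. Hif1a had log2 ratios of 1.10, 1.38 and 0.52 at its 3 probe sets above the floor, and Epas1, which encodes Hif2 alpha, had 0.39. Rac1 had -0.46 at its brighter probe set, and at another it was 2-fold lower, with signals of 664 and 332. There was 1 array per group, so no difference has a replicate check, a test or a p-value.

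The values are MAS5 signals on a linear scale. They were raised to a floor of 19.7 and put on a log2 scale, and a log2 ratio is knockout-labelled minus control, so a positive ratio means a higher signal on the knockout-labelled array. A gene takes its probe set of highest mean signal, and where 1 array was at the floor the ratio is given as a minimum size. The trimmed mean signal was 150.1 on both arrays. The SD of a log2 ratio per probe set, from the disagreement of 2 probe sets of 1 gene, was 0.64 over 2660 genes, and it was 0.65 over the 18 Zfp genes that have such a pair. This SD leaves out the spread between animals, pools and arrays. The ratio of 3' to 5' control probe sets for b-actin was 2.27 for the control and 16.0 for the knockout-labelled sample. For Gapdh it was 1.49 and 7.25, and the part of these ratios in the results below was not tested. All 11 stromal markers were above the floor on at least 1 array, but so were 8 of 9 epithelial, 8 of 8 endothelial, 10 of 10 leukocyte and 8 of 8 smooth muscle and pericyte markers. Krt19 was the marker at the floor on both arrays. The summed signal of the stromal list was 26297.5 for the control and 35591.6 for the knockout-labelled sample, that of the epithelial list 2322 and 1858, that of the endothelial list 3213 and 1905, that of the leukocyte list 4073 and 4218, and that of the smooth muscle and pericyte list 11334.5 and 11474.7. The medians over genes went lower than these sums: the median log2 ratio was 0.06 for the stromal list, -0.63 for the epithelial, -1.28 for the endothelial, -1.17 for the leukocyte and -1.18 for the smooth muscle and pericyte list. At least 2-fold lower were 1 of 11 stromal, 3 of 8 epithelial and 5 of 8 endothelial markers. So were 5 of 10 leukocyte and 4 of 8 smooth muscle and pericyte markers, beside 13.0% of all genes. Beside 6.21% of all genes, 1 epithelial and 2 leukocyte markers were at least 2-fold higher. Their part in the Zfp values was not tested, and in such bulk RNA fewer cells of a type and less RNA per cell cannot be told apart.

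Sequence is shown for a stretch of chromosome 17 on which several Zfp genes were at least 2-fold higher, because neighbours there are copies of each other. In RefSeq's GRCm38.p6 table, Zfp942 and Zfp943 start head to head, as do Zfp944 and Zfp758, and the windows from 250 bases before to 50 bases after each start overlap within each pair. The window of Zfp943 (chr17:21962309-21962608, plus strand) shares 194 bases with that of Zfp942, and the window of Zfp758 (chr17:22361213-22361512, plus strand) shares 162 bases with that of Zfp944. Both are printed 5′ to 3′ with the shared bases in capitals.
Zfp943: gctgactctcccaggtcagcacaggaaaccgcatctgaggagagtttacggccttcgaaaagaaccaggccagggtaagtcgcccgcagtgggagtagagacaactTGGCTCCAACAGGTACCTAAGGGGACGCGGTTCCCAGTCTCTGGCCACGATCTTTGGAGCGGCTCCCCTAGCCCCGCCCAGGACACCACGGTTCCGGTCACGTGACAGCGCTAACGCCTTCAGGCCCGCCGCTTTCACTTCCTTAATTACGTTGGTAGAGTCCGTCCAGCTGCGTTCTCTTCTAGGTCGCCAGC
Zfp758: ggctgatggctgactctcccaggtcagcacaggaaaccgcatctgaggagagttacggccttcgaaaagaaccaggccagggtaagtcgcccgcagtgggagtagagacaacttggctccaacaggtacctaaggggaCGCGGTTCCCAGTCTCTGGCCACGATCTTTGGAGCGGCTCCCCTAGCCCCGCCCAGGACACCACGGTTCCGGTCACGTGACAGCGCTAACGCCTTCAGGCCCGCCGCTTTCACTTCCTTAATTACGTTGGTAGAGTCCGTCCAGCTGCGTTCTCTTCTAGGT

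The windows of Zfp943 and Zfp758 were copies of each other, with 292 of 292 aligned bases identical and 1 gap base, and those of Zfp942 and Zfp944 had 274 of 275 aligned bases identical. Zfp942 and Zfp943 were both higher on the knockout-labelled array. Zfp942 had a signal of 64.9 there and lay under the floor on the control array, at least 3.29-fold higher, and Zfp943 went from 20.1 to 74.1, a log2 ratio of 1.88. The other pair parted. Zfp758 had a signal of 44.2 on the knockout-labelled array and lay under the floor on the control array, at least 2.24-fold higher, whereas Zfp944 went from 25.6 to 23.4 (log2 ratio -0.13). Copies this close can share probe matches, so which of them a probe set measures is uncertain.

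Zfp52 and Zfp948 follow each other on the same chromosome and had signals above the floor on both arrays. Their windows (chr17:21535289-21535588 and chr17:21566728-21567027, both on the plus strand) were more distant copies, with 135 of 182 aligned bases identical. They are printed with capitals for each base that lies in a match of at least 10 bases to the other window. Overlapping matches run together, so a longer capital block need not occur whole in the other window.
Zfp52: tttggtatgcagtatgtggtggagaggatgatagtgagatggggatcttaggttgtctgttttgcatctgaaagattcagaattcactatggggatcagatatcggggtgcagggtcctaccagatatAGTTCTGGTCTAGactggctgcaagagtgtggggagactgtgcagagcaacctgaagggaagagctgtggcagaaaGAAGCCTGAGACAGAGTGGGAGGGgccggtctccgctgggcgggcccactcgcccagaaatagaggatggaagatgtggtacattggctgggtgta
Zfp948: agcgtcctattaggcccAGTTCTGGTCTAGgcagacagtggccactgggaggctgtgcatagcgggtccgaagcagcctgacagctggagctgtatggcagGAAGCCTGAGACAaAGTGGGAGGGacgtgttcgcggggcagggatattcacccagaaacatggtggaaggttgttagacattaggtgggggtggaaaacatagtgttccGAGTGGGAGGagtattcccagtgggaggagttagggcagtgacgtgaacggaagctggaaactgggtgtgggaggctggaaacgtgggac

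The stretch AGTTCTGGTCTAG stood in 2 of the 32851 windows of the table on either strand, those of these 2 genes. A search for the core of the hypoxia response element, ACGTG on either strand, found it in 7 of 27 windows of the Zfp genes at least 2-fold higher (25.9%), in 20 of 87 windows of the other Zfp genes above the floor (23.0%), and in 25.6% of the windows of all genes compared and 19.6% of all windows. Among the printed windows it occurred in those of Zfp943, Zfp758 and Zfp948 and was not found in that of Zfp52. A match to these letters describes the window and does not show binding. Of the 170 Zfp genes, 137 had a window in the table.

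Zfp genes had higher signals on the knockout-labelled array more often than lower ones, in a comparison in which all genes leaned the other way. Of the 170 genes, 55 were at the floor on both arrays, 86 were above it on both, 20 were at the floor on the control array alone and 9 on the knockout-labelled array alone. That left 115 for comparison. On the knockout-labelled array 25 of them (21.7%) were higher by 2-fold or more and 4 (3.48%) lower by 2-fold or more, beside backgrounds of 6.21% and 13.0% among all 8593 genes compared. Higher by any amount were 78 of the 115, beside 44.7% of all genes. The median log2 ratio was 0.39, with quartiles at -0.10 and 0.93, and it was -0.10 over all genes. The family was chosen on this contrast, so these counts describe it and support nothing. Genes at the floor on the control array could pass only by being higher on the other array. Among the 86 above the floor on both arrays, 18 passed 2-fold upward (20.9%) and 4 downward (4.65%), with a median of 0.40. Over all 7866 genes above the floor on both arrays the shares were 6.36% and 12.6%, with a median of -0.085. Counted per probe set, 33 of 154 passed 2-fold upward and 6 downward, beside 6.84% and 13.9% of all 13284 probe sets compared, and 105 were higher by any amount, beside 44.0%.

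**Figure D1:**
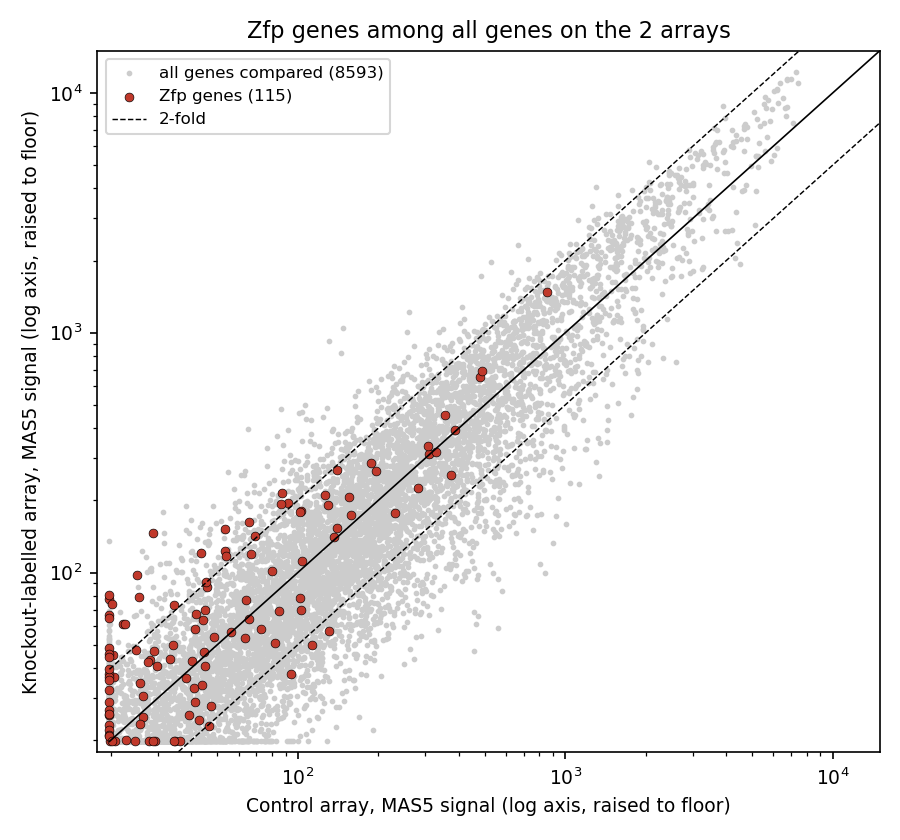
MAS5 signal on the control array (x axis, log scale) against the knockout-labelled array (y axis, log scale), both raised to the floor, for all 8593 genes compared (grey) and the 115 Zfp genes above the floor (red). The solid line marks equal signal and the dashed lines 2-fold, and 25 Zfp genes lie on or above the upper dashed line and 4 on or below the lower one.

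Zfp genes were dim on this array, with a median control signal of 41.6 beside 130.7 for all genes compared, and 57 of the 115 fell in the dimmest of 5 equal groups of genes by mean signal. In that group the Zfp genes had a median log2 ratio of 0.37 and all genes one of -0.24. In the second group the values were 0.39 for 26 Zfp genes and -0.36 for all genes, and in the third 0.81 for 17 Zfp genes and -0.19 for all. In the fourth they were 0.08 for 10 Zfp genes and -0.0019 for all, and in the brightest 0.45 for 5 Zfp genes and 0.31 for all. The Zfp median lay furthest from that of all genes in the 3 dimmer groups, and none of the 15 Zfp genes in the 2 brighter groups was past 2-fold. Of all genes, 7.63% were at least 2-fold higher and 11.2% lower in the fourth group, and 7.45% and 6.69% in the brightest. The 15 genes are too few to be set apart from these shares. Other scalings moved the median of all genes from -0.10 to 0.03 by quantile normalization, 0.16 by centring each array on its median and -0.01 by removal of the trend with signal. The median of the Zfp genes lay 0.49 above that of all genes as deposited, and 0.49, 0.46 and 0.49 above it in that order of scalings. The count at least 2-fold higher was 33, 37 and 30 genes, beside backgrounds of 8.22%, 13.3% and 7.55%, and all 25 genes past 2-fold as deposited were among them under each of these scalings. The count at least 2-fold lower was 1 under each, beside backgrounds of 9.54%, 7.79% and 10.1%.

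Each of the 25 genes at least 2-fold higher had a control signal under 100, from 20.1 to 91.5 in the 18 that were above the floor there, and a signal of 44.2 to 215 on the knockout-labelled array. For 7 of them the control array was at the floor and the ratio is a bound. Just inside the size limit was Zfp292 and just outside it Zfp810, at the floor on the control array and at 39.4 on the other. Further probe sets above the floor on at least 1 array existed for 12 of the 25, and every such probe set had a positive ratio. In only 5 genes was such a probe set also at least 2-fold higher. For Zfp101, Zfp280d, Zfp445, Zfp52, Zfp62 and Zfp638 the only such probe set was at the floor on the control array. Its ratio could only be positive, so the shared sign in these genes was fixed in advance. Zfp24, Zfp292 and Zfp644 also had such a probe set, beside another further one above the floor on both arrays. Another 9 genes had 1 probe set only, and in 4 the further probe sets were at the floor on both arrays.

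**Figure D2:**
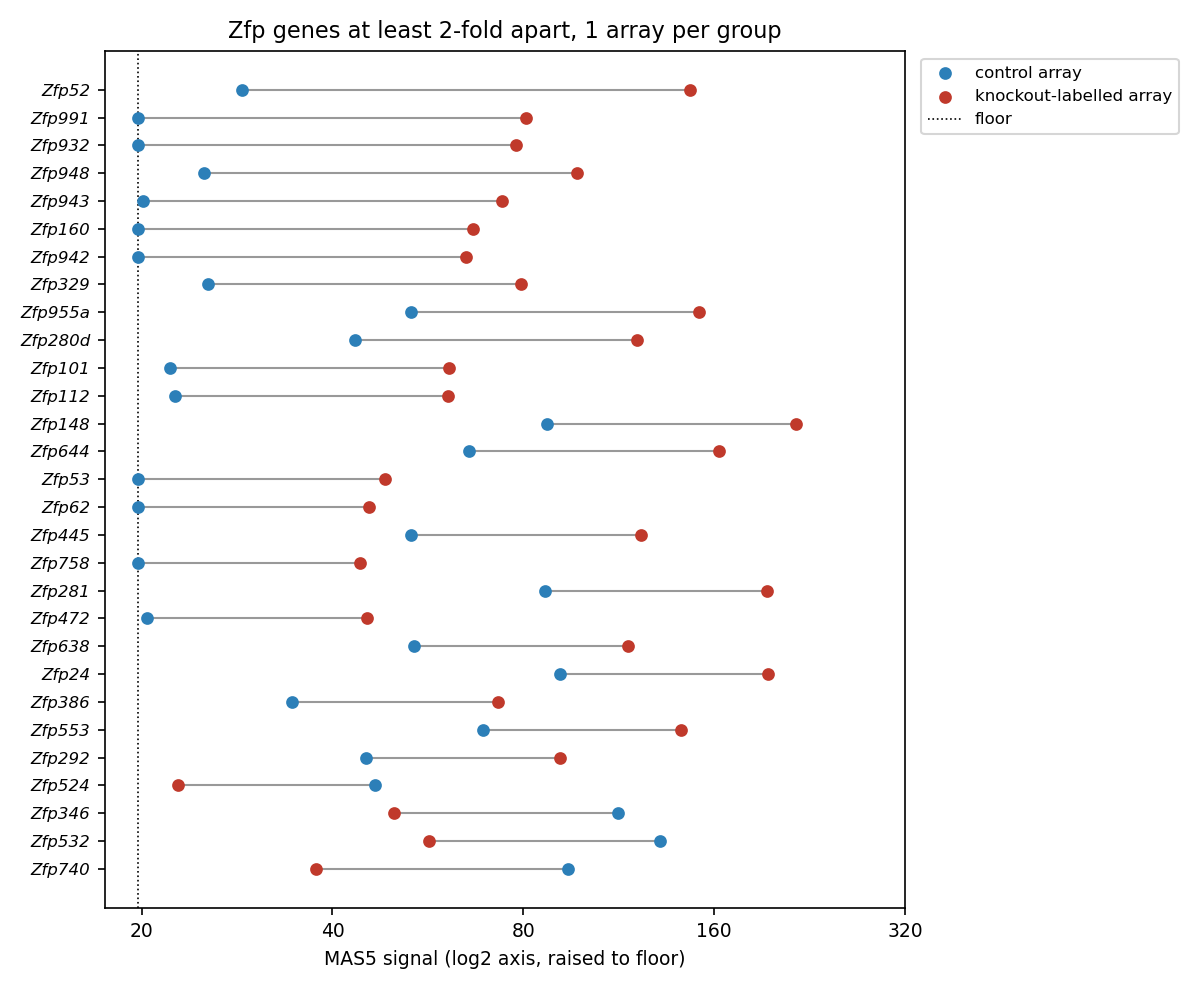
MAS5 signal (x axis, log2 scale, raised to the floor) of the 29 Zfp genes at least 2-fold apart, with the control array in blue and the knockout-labelled array in red. The 25 higher genes reach from 44.2 to 215 on the knockout-labelled array, and the 4 lower genes stand at the bottom.

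The 29 genes included members with established roles in development or chromatin. Zfp148, a Krüppel-type factor that binds GC-rich promoters, went from 87.1 to 215, a log2 ratio of 1.31, and its 3 further probe sets gave 1.67, 0.83 and 0.32. Its close relative Zfp281, which takes part in the control of pluripotency, had signals of 86.5 and 194 (1.16), and a second probe set gave 1.14. All 6 probe sets of these paralogues were thus higher on the knockout-labelled array. Zfp292, a large finger protein, had signals of 45.3 and 91.5 (1.02), with 1.24 at a second probe set and at least 2.11-fold at a further one. Zfp644, a partner of the histone methyltransferases G9a and GLP, had signals of 65.7 and 163 (1.31), with 0.73 at a second probe set and at least 1.20-fold at a further one. These genes shared a positive sign at each of their measured probe sets, with sizes that differed from one probe set to the next. At the probe sets of Zfp292 and Zfp644 given as a minimum, that sign was fixed in advance by the floor on the control array.

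Zfp280d, a homologue of the fly insulator protein suppressor of Hairy wing, had signals of 43.4 and 121 (1.48), and its other probe set was at least 2.60-fold higher. Its paralogue Zfp280c had signals of 45.9 and 86.8 (0.92), under the size limit. Zfp24, a factor with a SCAN dimerisation domain, had signals of 91.5 and 195 (1.09), with 0.81 at a second probe set and at least 1.39-fold at a further one. Zfp445, a KRAB protein that maintains genomic imprints, had signals of 53.2 and 122 (1.20), and its second probe set was at least 1.69-fold higher. Zfp57, the other well-known keeper of imprints, was at the floor on both arrays. Zfp568, a KRAB repressor of a placental Igf2 transcript, had signals of 63.7 and 53.1 (-0.26). So among the KRAB proteins with known imprinted targets only Zfp445, of these 3 genes, was past 2-fold.

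The remaining higher genes were mostly little-studied finger genes. Zfp991 and Zfp932 had signals of 80.8 and 77.8 on the knockout-labelled array and were at least 4.10-fold and 3.94-fold higher, with the control array at the floor, and the other probe set of Zfp991 was at the floor on both arrays. Zfp329 had signals of 25.5 and 79.3 (1.64), and its other probe set had 29.2 and 59.97 (1.04). Zfp112 had signals of 22.6 and 60.8 (1.43) at its only probe set. Zfp62 was higher by at least 2.32-fold and 1.43-fold at its 2 probe sets. Zfp386 (34.5 and 73.1, log2 ratio 1.08) and Zfp553 (69.0 and 142, log2 ratio 1.04) each rested on 1 probe set above the floor.

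The 4 lower genes had control signals between 46.6 and 131, and all were above the floor on both arrays. Zfp740 had signals of 94.2 and 37.7 (log2 ratio -1.32), Zfp532 of 131 and 56.9 (-1.21), and Zfp524 of 46.6 and 22.8 (-1.03), each at a single probe set. Zfp346, which binds double-stranded RNA, had signals of 113 and 49.9 (-1.17), and its second probe set, under the floor on the second array, had a log2 ratio of -0.10 or lower.

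The higher genes were gathered in part on chromosome 17. Runs of neighbouring Zfp genes were formed from the gene order of the RefSeq table, with at most 5 other protein-coding genes between neighbours, after the values had been seen, and 6 runs held at least 4 Zfp genes above the floor. The run from Zfp160 to Zfp13 had 7 of 11 compared genes past 2-fold upward and none downward, with a median log2 ratio of 1.29, and the run from Zfp871 to Zfp414 had 3 of 5, with a median of 1.15. Both runs lie on chromosome 17. Together they held 10 of the 25 higher genes among 16 compared (62.5%), beside 6.21% higher and 13.0% lower among all genes. Only 10 of these 16 genes were above the floor on both arrays. In the first run Zfp160, Zfp53, Zfp51, Zfp40, Zfp942 and Zfp758 were at the floor on the control array. They could enter only by being higher on the other array, so they could add to the higher genes and never to the lower ones. Their ratios are minimum sizes, so the median of the run rests in part on bounds. The other 4 runs had 2 of 22 at least 2-fold higher (9.09%) and 11 of 22 higher by any amount. Their median was 0.04. The 77 Zfp genes in no run had 13 past 2-fold upward (16.9%) and a median of 0.36. The second run rests on this spacing rule: with at most 2 genes between neighbours it was no longer a run, and the first became Zfp677 to Zfp946 with 6 of 8 genes past 2-fold upward. These runs were picked for their counts, so the contrast between them is a description.

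**Figure D3:**
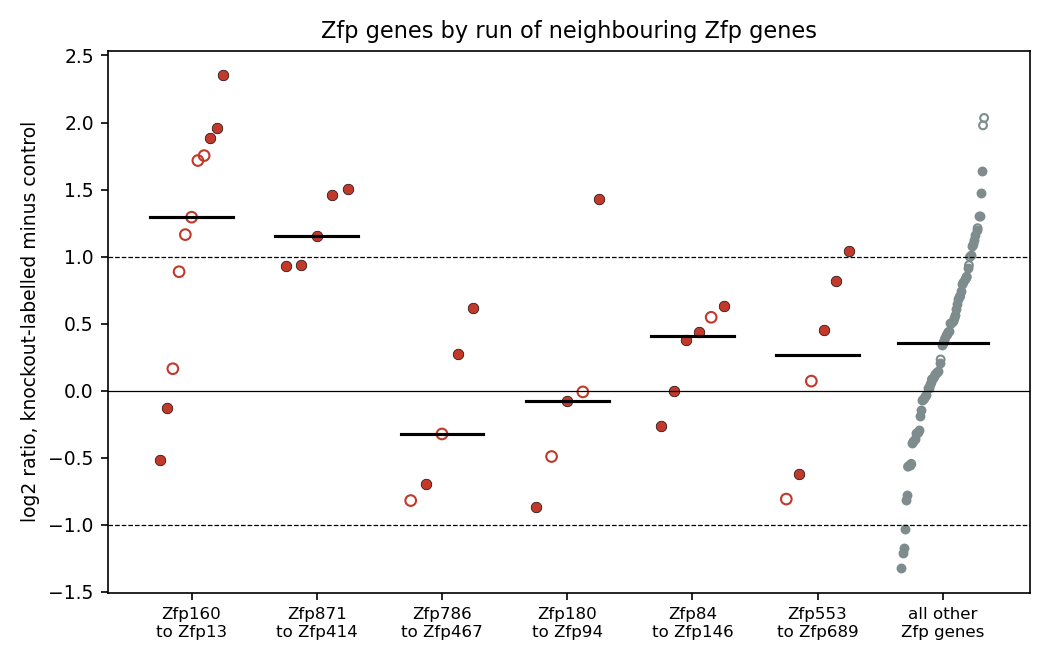
Log2 ratio (y axis, knockout-labelled minus control) of the Zfp genes above the floor in 6 runs of neighbouring Zfp genes, named by their first and last gene (x axis, red), and of the 77 Zfp genes in no run (grey). Filled points are above the floor on both arrays, open points are bounds with 1 array at the floor, bars are medians and dashed lines mark 2-fold, and the 2 runs on the left have medians of 1.29 and 1.15.

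In the first run, Zfp52 had signals of 28.8 and 147 (log2 ratio 2.35), the largest measured ratio of any Zfp gene at its probe set of highest signal, and its second probe set was at least 1.36-fold higher. Zfp948 had signals of 25.1 and 97.3 (1.96). Zfp160 and Zfp53 were under the floor on the control array, had signals of 66.5 and 48.4 on the other, and had minimum increases of 3.37-fold and 2.45-fold. Zfp51, between them in gene order, was at least 1.85-fold higher and so under the size limit, with a signal of 36.5 on the knockout-labelled array. Zfp942, Zfp943 and Zfp758 complete the 7 higher genes of the run. Not higher in this run were Zfp944, described with its promoter, and Zfp213, with signals of 41.2 and 28.8 (-0.52), and Zfp40 was at least 1.12-fold higher. Most signals of this run on the control array were close to the floor.

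In the second run all 5 compared genes had positive ratios close to 1 or above. Zfp955a had signals of 53.3 and 151 (1.51) and its tandem copy Zfp955b had 24.8 and 47.3 (0.93), with 0.86 at a second probe set. Zfp101 had signals of 22.2 and 61.0 (1.46), and its second probe set was at least 1.66-fold higher. Zfp472 had signals of 20.4 and 45.3 (1.15) and Zfp871 had 139.7 and 267 (0.94). The other genes measured inside this run and among the 10 protein-coding genes on either side numbered 14. Of these 3 were at least 2-fold lower and none higher, beside 13.0% and 6.21% of all genes. These counts are too small to be set apart from those shares. The median of the 14 was -0.92, beside -0.10 over all genes. Around the first run there were 5 such genes, of which 1 passed 2-fold upward, with a median of -0.23. The higher one was Ppp2r1a, the scaffold subunit of protein phosphatase 2A, with signals of 2001 and 4072 (1.03), named after its value was seen.

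Without the genes of both runs, 15 of 99 Zfp genes passed 2-fold upward (15.2%) and 4 downward (4.04%), with a median log2 ratio of 0.27. The shares of all genes were 6.21% and 13.0%. The other 4 runs had ratios closer to 0, some of them bounds set by the floor. From Zfp786 to Zfp467 the 5 genes compared ranged from -0.82, a bound for Zfp282, to 0.62 for Zfp777. From Zfp84 to Zfp146 the 6 genes ranged from -0.26 for Zfp568 to 0.63 for Zfp566. In the run from Zfp180 to Zfp94, Zfp112 stood alone above 2-fold. The other 4 had values between -0.87 for Zfp61 and -0.01, of which those of Zfp235 and Zfp111 are bounds. From Zfp553 to Zfp689, Zfp553 was past 2-fold (1.04), Zfp764 had 0.82, Zfp771 had -0.62 and Zfp688 had -0.81 or lower.

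Zfp proteins that act outside classical DNA binding were brighter and went both ways. Of 13 genes placed in this group from textbook knowledge, with their values known, 11 were above the floor. Of these, 1 passed 2-fold upward and 1, Zfp346, downward (9.09% each, beside 6.21% and 13.0% of all genes). The 11 genes are too few to be set apart from these shares. Their median log2 ratio was 0.14, and it includes Zfp207 and Zfp622, whose probe sets disagreed in sign. Zfp638, an RNA-binding nuclear protein linked to adipocyte differentiation, had signals of 53.7 and 117 (1.12), and its second probe set was at least 1.78-fold higher. Zfp326, part of a complex that couples transcription elongation to splicing, had signals of 103 and 179.7 (0.81). Zfp598, the ubiquitin ligase that marks collided ribosomes, had 158 and 174 (0.14), Zfp106 had 231 and 176 (-0.39, with -0.10 at a second probe set), and Zfp830 had 102 and 78.2 (-0.38, with -0.08 and -0.04 or lower at 2 others). The nucleolar protein Zfp330 had 480.0 and 654 (0.45). The group of 18 genes of development and chromatin, chosen in the same way, had 17 above the floor, of which 6 passed 2-fold upward and none downward, with a median of 0.74.

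For Zfp207, Zfp622 and Zfp318 the direction was not settled, because their probe sets disagreed in sign. Zfp207, also called BuGZ, which loads Bub3 onto kinetochores, had signals of 373 and 254 at its probe set of highest signal (-0.55), but 46.8 and 119.6 (1.35) and 24.8 and 177 (2.84) at 2 others, and a further one was at least 1.13-fold higher. The value of 2.84 is the largest log2 ratio among all Zfp probe sets. Zfp622, a factor of large ribosomal subunit maturation, had the highest signals of the family, 854 and 1482 (0.79), and 69.8 and 26.5 (-1.40) at its other probe set. Zfp318, which controls alternative transcription of the IgD heavy chain in B cells, had 66.7 and 119.9 (0.85), 35.3 and 23.2 (-0.60) and a further probe set at least 1.28-fold lower. Mixed signs were also seen in Zfp110 (0.42, 0.66 and -0.28), Zfp704 (0.74 and -0.30) and Zfp574 (0.61, and -0.13 or lower). Zfp790 had -0.0013, almost no change, and 0.67 at a second probe set.

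Across the 18 Zfp genes with 2 probe sets above the floor on both arrays, 10 had both ratios positive, 3 both negative and 5 differed in sign, and the same sign was seen in 72.2% of them, beside 55.8% of all 2660 genes with such a pair. In 6 such genes the first probe set passed 2-fold upward, and in 4 of these the second did too, beside 84 of 283 among all genes. No Zfp gene had probe sets past 2-fold in opposite directions. This was also rare among all genes, at 14 of the 2660 pairs, so its absence here describes little. Zfp410, an activator of the chromatin remodeller gene Chd4, had signals of 281 and 225 (-0.32) and 75.6 and 35.6 (-1.09), lower at both.

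**Figure D4:**
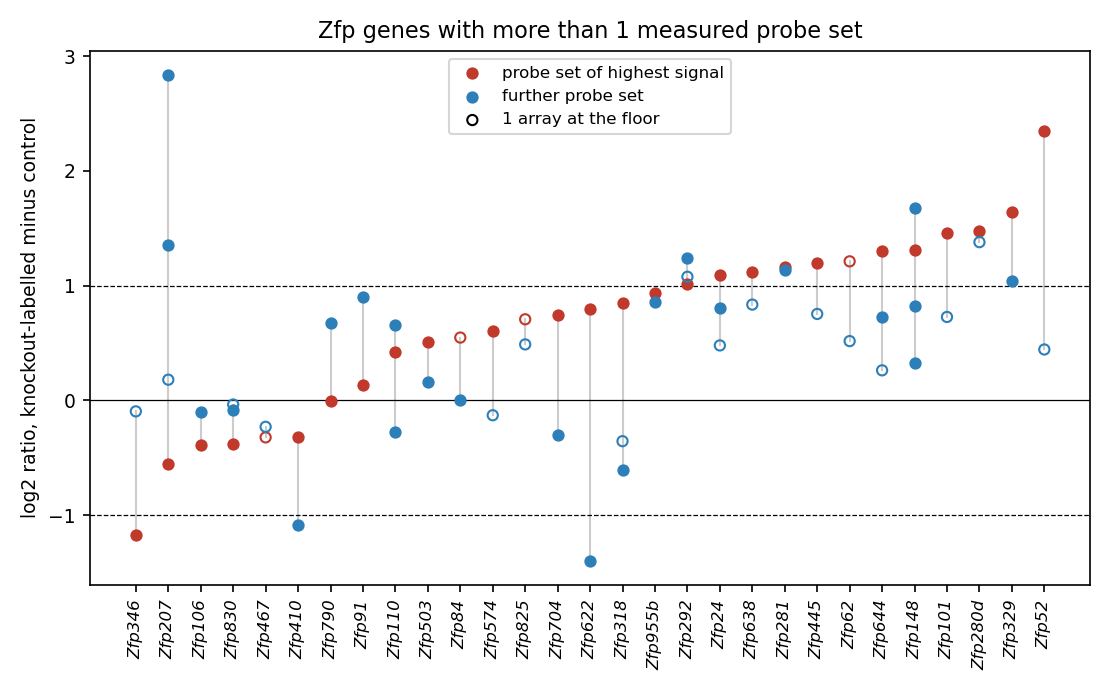
Log2 ratio (y axis, knockout-labelled minus control) of each measured probe set in the 29 Zfp genes with more than 1 probe set above the floor on at least 1 array, ordered by the probe set of highest signal (red), with further probe sets in blue and open points where 1 array was at the floor. The genes on the right are positive at each of their probe sets, while Zfp207, Zfp622 and Zfp318 are among the genes with probe sets on both sides of 0.

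None of the 10 Zfp genes of highest signal was past 2-fold at its probe set of highest signal. Log2 ratios there ran from -0.55 for Zfp207 to 0.79 for Zfp622. In the brightest of the 5 signal groups, 7.45% of all genes were at least 2-fold higher and 6.69% lower. The 10 genes are too few to be set apart from such shares. Zfp503, a co-repressor of the developing limb and striatum, had signals of 489 and 695 (0.51) and 351 and 393 (0.16) at its 2 probe sets, and its paralogue Zfp703 had 329.8 and 318 (-0.05). Zfp521, which restrains differentiation of mesenchymal progenitors, had 309 and 312 (0.02), and its paralogue Zfp423, a factor of preadipocyte commitment, had 41.2 and 58.3 (0.50). Zfp275 had 387 and 392.5 (0.02) and Zfp46 had 355 and 454 (0.36). Zfp91, a ubiquitin ligase of the non-canonical NF-kB pathway, had 307 and 337 (0.13) and 227 and 423 (0.90). Of 22 members listed for an established role, 16 had a probe set naming 1 gene and 13 were above the floor, and the pluripotency marker Zfp42, also known as Rex1, was at the floor on both arrays with Zfp57 and Zfp385a.

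The partners of KRAB proteins went both ways, and the sign of their median depended on the scaling. Of a list of 33 genes that form or act with the Trim28 complex, 24 had a probe set naming 1 gene and 23 were above the floor. Past 2-fold were 2 upward (8.70%) and 4 downward (17.4%), near the 6.21% and 13.0% of all genes, and the median log2 ratio of -0.11 turned positive after quantile normalization (0.031) and median centring (0.17). Trim28 had signals of 405 and 238 (-0.77) and Setdb1 had 104 and 81.9 (-0.35), each at its only probe set above the floor. Mphosph8, a subunit of the HUSH silencing complex, had 83.5 and 371 (2.15), with 0.83 at a second probe set. The remodeller Smarcad1 had 42.0 and 138 (1.72), but its other probe set gave -0.95 or lower, so its direction was not settled. Lower were Ehmt2, the methyltransferase G9a (205 and 36.9, log2 ratio -2.48), the NuRD subunits Mbd3 (104 and 33.8, -1.62) and Mta2 (at least 4.20-fold lower), and Uhrf1, which recruits the maintenance methyltransferase to DNA (419 and 179.8, -1.22, with -0.76 at a second probe set).

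Other zinc finger families are set beside the same backgrounds of 6.21% higher and 13.0% lower among all genes. Of 18 Zbtb genes, which pair fingers with a BTB domain, 2 passed 2-fold upward (11.1%) and 1 downward (5.56%), with a median log2 ratio of -0.01 that was 0.18 after quantile normalization, 0.21 after centring and 0.14 after loess. The higher ones were Zbtb20 (321 and 800, log2 ratio 1.32) and Zbtb1 (1.14) and the lower one Zbtb46 (-1.23). Of 9 Zscan and Zkscan genes, the SCAN-domain relatives of the KRAB genes, none was past 2-fold, with 7 of 9 higher by any amount and a median of 0.24, under that of the Zfp genes. That order turned with the 60th percentile floor (0.30 against 0.29) and without _s_at and _x_at probe sets (0.42 against 0.36). Of 14 Klf and Sp genes, 1 passed 2-fold upward (7.14%), Sp3 (1.60), and 4 downward (28.6%), Klf15 (-1.77), Klf16 (-1.38), Klf2 (-1.27) and Klf3 (-1.04), with a median of 0.16. No difference between these families and the Zfp genes was tested. The RNA-binding proteins left out by the rule went separate ways, with signals of 1667 and 678 for Zfp36 (-1.30), 1313 and 1189.9 for Zfp36l2 (-0.14), and 2562 and 4535 for Zfp36l1 (0.82), whose second probe set gave -1.14.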

How the data were processed

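Uterine stromal cell RNA of each genotype was hybridised to a single Affymetrix 430A 2.0 mouse array, 2 in all. The deposited intensities are linear MAS5 signals, made by the authors with MAS5 in Affymetrix Expression Console version 1 per the submitters' processing notes, and their scaling target is not stated there. Detection calls were not used.

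Control probe sets, 64 in number, were left out. Of the others, 20380 name 1 gene, 691 several and 1555 none, and 16 of those with several symbols name a Zfp gene and were not used. Symbols were brought up to date through Entrez identifiers in a RefSeq table (GRCm38.p6), which left the Zfp members the same. Before log2, any signal under 19.7, the 40th percentile over the 2 arrays together, was set to that value. Genes named by rule are those past 2-fold, the 10 of highest signal, any with probe sets past 2-fold in opposite directions, and a list with established roles. Other genes given with values fall outside this rule, such as further run members, paralogues, role group members and genes with probe sets of mixed sign. Members, lists and rules were chosen with earlier results of these data known, and gene runs, role groups and promoter comparisons after the values were seen.

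Promoter windows of 300 bases came from RefSeq and were aligned with Biopython 1.88. Python 3.11.15, pandas 2.3.3 and statsmodels 0.14.6 (loess span 0.4) were used. The code that counts genes past 2-fold was checked on simulated data, which bears on the code and not on the choice of 2-fold. KRAB domains were not read from proteins, since no protein sequences were used here, so the 2 planned medians by KRAB domain were not computed.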

Additional observations from a re-analysis of the deposited data

How the results depend on the processing

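With 1 array per group no setting has a test. No paired analysis was possible because each group has 1 array. The Zfp genes at least 2-fold higher and lower, 25 and 4 in number, became 45 and 11 at 1.5-fold, 8 and 0 at 3-fold, 38 and 9 with the floor at the 25th percentile (154 genes), and 7 and 0 with it at the 60th (55 genes). The number lower was 1 after quantile normalization, median centring or loess, 7 with a pseudocount of 4.70 and no floor, and 8 without _s_at and _x_at probe sets. In settings chosen after seeing the data, the number higher was 15 without the genes of both chromosome 17 runs, and 6 higher and 0 lower among the 18 genes with 2 measured probe sets. The median log2 ratio was 0.52 after quantile normalization, 0.62 after centring, 0.29 with the 60th percentile floor, 0.27 without both runs and 0.77 over those 18 genes. It was positive in every setting run. Per probe set, 54 were higher and 12 lower with the 25th percentile floor, 8 and 0 with the 60th, and 2 lower after quantile normalization, centring or loess. With at most 2 genes between neighbours, runs held 7 higher genes and the Zfp871 to Zfp414 run was lost.

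The co-repressor median turned to 0.17 with centring and 0.031 with quantile normalization, and was -0.27 over the median of probe sets and -0.36 without _s_at and _x_at probe sets. The Zbtb median moved to 0.21 with centring, 0.18 with quantile normalization and 0.14 with loess, the Zscan and Zkscan median to 0.52, 0.40 and, without _s_at and _x_at probe sets, 0.42, and the Klf and Sp median to 0.40 with centring. Of the values of single genes under alternatives, 371 moved by less than the probe set SD and 15 moved by more. In all, 8 changed sign: Zfp207 to 0.77, Zfp318 to -0.36 and Zfp622 to -0.30 over the median of probe sets, Zfp622 to -1.40 without _s_at and _x_at probe sets, and 4 values of Zfp568 and Zfp703 under other scalings. The causes were not tested. With the higher floor, 55 of the 115 genes could be compared.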
